A study of Mus musculus with 40 samples.

Results

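Adult luminal and basal epithelial cells of the mouse mammary gland were compared in 16 of the 40 libraries of the series: all 8 luminal and all 8 basal libraries of the adult count table, joined in 8 pairs by the pool of mice from which both came. The mice were wildtype virgin FVB/N females of 14 to 16 weeks. Luminal cells were sorted as lineage-negative cells with high EpCAM and medium CD49f, and basal cells as lineage-negative cells with medium EpCAM and high CD49f. Each cell type was sampled in proestrus, estrus, metestrus and diestrus with 2 pools a stage, each of 2 or 3 mice that had been sorted one by one and combined at RNA isolation. The 2 pools of a stage were different mice, divided by early or late position within the stage where a difference was clear and otherwise by cell number, so a replicate number can carry a place in the stage in some stages and none in others. A further 4 libraries, 2 luminal and 2 basal, came from pubertal wildtype FVB/N females, labelled 34 to 36 days, with 4 mice pooled before the sort. For both cell types the paper places replicate 1 on day 34 and replicate 2 on the following day. These libraries are used where the adult difference is set against the pubertal one. Both ages were read as single ends of polyadenylated RNA.

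The mammary duct is a bilayer. Luminal cells line the lumen, carry tight junctions at their apical side, and divide into hormone-sensing cells, which express the receptors for estrogen, progesterone and prolactin, and progenitors that give rise to milk-secreting alveolar cells. Basal cells lie on the basement membrane, express stratified-type keratins together with smooth muscle contractile proteins, and contract in response to oxytocin. A luminal library here is a bulk mixture of hormone-sensing and progenitor cells, so that a lower level can come from fewer cells of a type or from less RNA per cell, and these cannot be told apart.

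Total counts ranged between 16832957 and 22760563 in luminal libraries and between 12568238 and 20876762 in basal libraries. Values are given as CPM, the counts of a gene per 1000000 counts of its library, scaled by TMM library factors. A log2 fold change is luminal over basal with its standard error, from edgeR's quasi-likelihood test on 8 pairs with Benjamini-Hochberg adjustment over all genes tested. The standard error was worked back from the test, as the size of the log2 fold change over the square root of its F statistic, and is approximate. A value with ± in parentheses beside a gene is that log2 fold change and its standard error, and the largest adjusted p given for a gene list covers the members called. Pairwise, genes above 1 CPM numbered 11812 to 12029 in luminal libraries and 11546 to 11811 in basal libraries, and were more in the luminal library in 8 of 8 pairs (two-sided exact permutation p = 0.0078125, the smallest that 8 pairs allow).

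The marker genes matched the labels. Krt18, the type I keratin of simple epithelia (chromosome 15, 102028180 to 102032027 on GRCm38), lay between 6028 and 8336 CPM in luminal libraries (median 6949.7), against 278 to 383 CPM in basal libraries (median 338). Krt14, a type I keratin of basal layers (chromosome 11, 100203162 to 100207548), lay between 5.38 and 30.02 CPM in luminal libraries (median 10.96), against 5267 to 8369.9 CPM in basal libraries (median 6510.1). No luminal library overlapped a basal one in either gene (log2 fold changes 4.43 ± 0.11, adjusted p = 1.71e-13, and -9.25 ± 0.33, adjusted p = 5.39e-12). Per kilobase of exon, Krt18 averaged 4920.4 ± 538 RPKM in luminal libraries and 228 ± 27.1 RPKM in basal libraries, and Krt14 averaged 7.05 ± 4.402 RPKM in luminal libraries and 3813 ± 589 RPKM in basal libraries (SD, n = 8 each). The genes of the sort itself, which are no findings, followed the gates: Epcam had a log2 fold change of 1.26 ± 0.09 and Itga6, which encodes CD49f, one of -1.18 ± 0.09.

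Cross-contamination and other cell types were measured with marker lists. The summed level of 14 basal markers was 43.9 to 68.2 CPM in luminal libraries, against 18273 to 28074 CPM in basal libraries. The summed level of 17 luminal markers was 25375 to 32165 CPM in luminal libraries, against 2220 to 3009 CPM in basal libraries, where the largest parts were Krt8 (1263 to 1751 CPM), Cd24a (393 to 656 CPM) and Krt18. Other luminal markers were near 0 in basal libraries: Prlr reached 0.743 CPM, Foxa1 0.622 CPM and Elf5 0.498 CPM. Of the 39 markers of 6 other cell types, 23 were tested, 6 were higher in luminal and 17 lower. Over all genes tested 41.4% were higher and 39.1% lower. Fibroblast markers summed to 121 to 611 CPM in luminal libraries, against 66.2 to 158 CPM in basal libraries. In luminal libraries most of it was Dcn, a small proteoglycan (116 to 605 CPM). In basal libraries Dcn lay at 34.7 to 79.9 CPM, and its part ran from 38.3 of 117 CPM in proestrus replicate 1 to 73.4 of 98.0 CPM in estrus replicate 1. Col1a1, Col1a2, Col3a1, Lum and Pdgfra were all lower in luminal. Endothelial markers summed to 17.6 to 58.0 CPM in luminal libraries, against 9.09 to 36.1 CPM in basal libraries, with Vwf higher in luminal and Pecam1, Cdh5, Kdr, Tie1, Emcn and Cldn5 lower. Pericyte markers summed to 1.25 to 2.98 CPM in luminal libraries and 6.07 to 13.8 CPM in basal libraries, leukocyte markers to 2.54 to 3.26 and 0.933 to 3.08 CPM, adipocyte markers to 33.0 to 69.0 and 28.6 to 37.6 CPM, and erythroid markers to 1.15 to 5.12 and 0 to 0.0551 CPM. Of 8 leukocyte markers 2 were tested and ran in opposite directions. Csf1r, the receptor of colony-stimulating factor 1 on macrophages, made up most of the luminal sum, at 2.44 to 3.16 CPM in luminal and 0.396 to 1.16 CPM in basal libraries (1.97 ± 0.21, adjusted p = 9.76e-07), and Lyz2, a lysozyme of macrophages, lay at 0.0493 to 0.596 CPM in luminal and 0.498 to 2.28 CPM in basal libraries (-2.78 ± 0.31, adjusted p = 1.24e-06). The defining leukocyte genes Ptprc and Cd3e were at most 0.193 CPM in every one of the 16 libraries. The part of these cells in the results was not tested.

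The difference between the lineages reached most of the transcriptome. Of 13193 genes tested, 5463 were higher in luminal (41.4%) and 5154 lower (39.1%), so 80.5% were called in one direction or the other. Tested against a change of 2-fold, 2452 genes were higher (18.6%) and 2062 lower (15.6%). In 3524 genes called higher every luminal library lay above every basal one (26.7%), and in 3410 genes called lower every luminal library lay below (25.8%). The median log2 fold change over all genes was 0.04 and its median size 0.784. A log2 fold change of 5 or more was estimated for 438 genes higher and 443 genes lower in luminal, and 5161 of the called genes differed by less than 1 on the log2 scale.

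**Figure D1:**
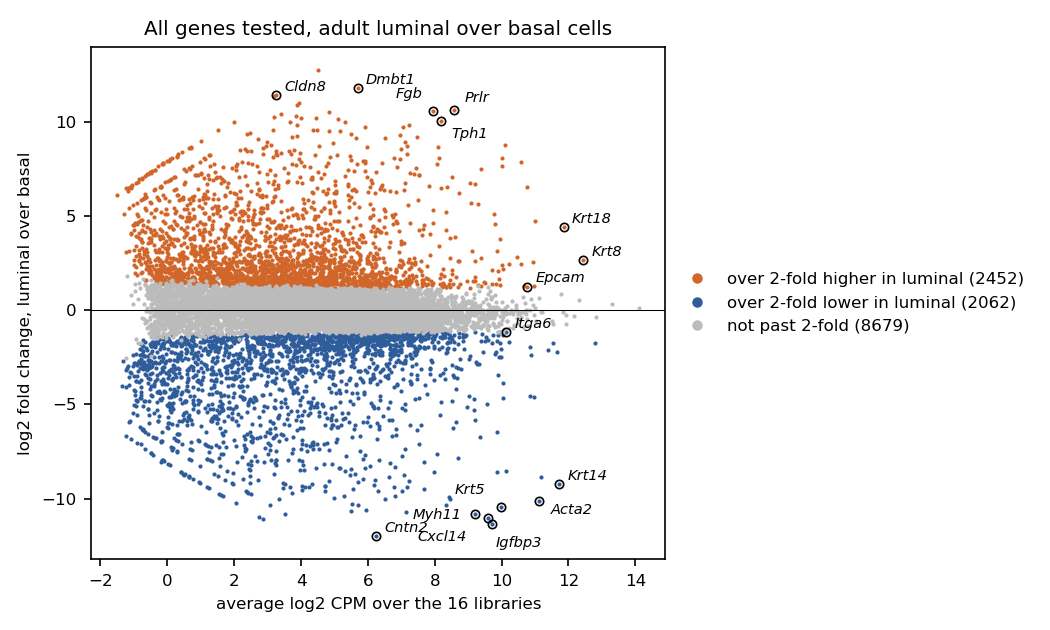
Luminal over basal log2 fold change (vertical) against mean log2 CPM (horizontal) for 13193 genes, with 2452 genes higher and 2062 lower in luminal beyond 2-fold coloured and the other 8679 grey. The genes past 2-fold fill both sides about evenly, and Cldn8, with no count in basal libraries, is drawn at its fitted value.

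In each direction 12 genes were named by a fixed rule, those with the largest fold changes among well expressed genes called with no overlap of the libraries. Predicted genes and those without a symbol were left out. On the luminal side these were Dmbt1, Prlr, Fgb, Cyp3a57, Tph1, Abcc8, Piezo2, Cxcl15, Rasef, R3hdml, Aqp5 and AW112010, with log2 fold changes of 9.32 to 11.79 and adjusted p of at most 3.04e-12. Dmbt1, a secreted scavenger receptor glycoprotein (chromosome 7, 131032053 to 131121630), lay between 1.96 and 277 CPM in luminal libraries (median 51.2), against 0 to 0.1102 CPM in basal libraries (median 0). Only 3 of its counts fell in basal libraries, so the ratio of the groups was 4424 with a 95% exact interval of 1513 to 21452, for counting error only, since reads are not independent molecules. Prlr, the prolactin receptor (chromosome 15, 10177238 to 10349180), lay between 439 and 1043 CPM in luminal libraries (median 793), against 0.201 to 0.743 CPM in basal libraries (median 0.413) (log2 fold change 10.63 ± 0.22). Fgb, the fibrinogen beta chain (chromosome 3, 83040141 to 83049863), had a median of 509.8 CPM in luminal libraries (range 199 to 742), against 0.2596 CPM in basal libraries (range 0 to 0.932) (10.60 ± 0.31). All 3 genes were below 1 CPM in every basal library, while Dmbt1 varied far more among luminal libraries than Prlr did. Tph1, the rate-limiting enzyme of peripheral serotonin synthesis (chromosome 7, 46644641 to 46672537), lay between 299.6 and 881 CPM in luminal libraries (median 587), against 0.0637 to 1.75 CPM in basal libraries (median 0.4098) (10.04 ± 0.27). Abcc8, the sulfonylurea receptor subunit of potassium channels, had a median of 74.2 CPM in luminal libraries (range 66.1 to 93.01), against 0.0562 CPM in basal libraries (range 0 to 0.267) (10.0 ± 0.23). Piezo2, a stretch-activated cation channel, had a median of 276 CPM in luminal libraries (range 168 to 498), against 0.289 CPM in basal libraries (range 0 to 0.552) (9.85 ± 0.26). These 3 genes did not exceed 1.75 CPM in any basal library. Cxcl15, a chemokine, had medians of 279.8 CPM in luminal and 0.271 CPM in basal libraries, and Cyp3a57, a cytochrome P450, of 62.02 CPM in luminal and 0 CPM in basal libraries.

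On the basal side the named genes were Cntn2, Igfbp3, Cxcl14, Myh11, Scn7a, Reln, Actg2, Krt5, Col14a1, Fmod, Bcat1 and Acta2, with log2 fold changes of -11.98 to -10.13 and adjusted p of at most 1.28e-10. Cntn2, a contactin of the immunoglobulin superfamily known from axons (chromosome 1, 132509427 to 132543256), lay between 0 and 0.0559 CPM in luminal libraries (median 0.0495), against 89.6 to 193 CPM in basal libraries (median 155) (-11.98 ± 0.20). Igfbp3, the main serum carrier of insulin-like growth factors (chromosome 11, 7206086 to 7213923), lay between 0.193 and 1.74 CPM in luminal libraries (median 0.409), against 1183 to 2181 CPM in basal libraries (median 1652) (-11.36 ± 0.35). Cxcl14, a chemokine of epithelia (chromosome 13, 56288643 to 56296551), had a median of 0.631 CPM in luminal libraries (range 0.296 to 1.596), against 1473 CPM in basal libraries (range 989 to 2087) (-11.01 ± 0.20). The 3 genes had no overlap between the groups and were at or near 0 in luminal libraries. Reln, the secreted glycoprotein that guides neurons in the developing cortex, had a median of 0.0249 CPM in luminal libraries (range 0 to 0.199), against 88.4 CPM in basal libraries (range 38.8 to 139) (-10.65 ± 0.27). Scn7a, an atypical sodium channel, had a median of 0.113 CPM in luminal libraries (range 0 to 0.399), against 261 CPM in basal libraries (range 127 to 458) (-10.72 ± 0.26). Matrix genes were among them too: Col14a1, a fibril-associated collagen, had medians of 0.392 CPM in luminal and 692 CPM in basal libraries, and Fmod, the proteoglycan fibromodulin, of 0.0547 CPM in luminal and 101 CPM in basal libraries. Bcat1, a cytosolic branched-chain aminotransferase, had medians of 0.0513 CPM in luminal and 94.04 CPM in basal libraries.

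Keratins separated the lineages in the way of their filament classes. All 5 simple epithelial keratins tested were higher in luminal, against 41.4% of all genes (median log2 fold change 4.43, against 0.04 over all genes, largest adjusted p of those called 0.00641). Krt20 was left out by the filter on low counts. With no filter Krt20, with 4 luminal and 27 basal counts, was lower in luminal (-2.81 ± 0.76, adjusted p = 0.00267), as it was with all 32 adult libraries in the fit (adjusted p = 9.02e-05). Krt19 lay between 2853 and 4284 CPM in luminal libraries (median 3461), against 19.9 to 49.8 CPM in basal libraries (median 41.5) (6.57 ± 0.18). Krt7 had a median of 1059.6 CPM in luminal libraries (range 918 to 1255), against 21.5 CPM in basal libraries (range 13.7 to 29.4) (5.68 ± 0.14). Krt8, the type II partner of Krt18, had a median of 9696 CPM in luminal libraries (range 8166 to 10659), against 1514 CPM in basal libraries (range 1263 to 1751) (2.68 ± 0.10). The gap was thus smaller for Krt8 than for the other 3. Per kilobase Krt8 averaged 4940.4 ± 398 RPKM in luminal libraries and 773 ± 99.6 RPKM in basal libraries (SD, n = 8 each). Krt80 was the smallest of the 5, at 0.48 ± 0.14, with overlapping groups (adjusted p = 0.475 with all 32 adult libraries in the fit).

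Among 7 stratified-type keratins tested, Krt5, Krt14, Krt17, Krt15 and Krt16 were lower in luminal, Krt6a was higher and Krt10 did not pass (median -3.79, adjusted p at most 3.18e-09, Krt1 and Krt6b left out by the filter on low counts). The shares over all genes were 39.1% lower and 41.4% higher. With no filter Krt1 was higher (adjusted p = 0.0187) and Krt6b did not pass (adjusted p = 0.0772). Krt5, the type II partner of Krt14 (chromosome 15, 101707070 to 101712898), lay between 0.527 and 11.8 CPM in luminal libraries (median 0.854), against 1470.3 to 2659 CPM in basal libraries (median 2072) (-10.45 ± 0.50). Krt17, a keratin of basal cells and of wounded epidermis, had a median of 9.33 CPM in luminal libraries (range 5.51 to 18.3), against 4747 CPM in basal libraries (range 3629 to 5387) (-8.88 ± 0.27). Krt15 had a median of 15.6 CPM in luminal libraries (range 9.09 to 28.2), against 119 CPM in basal libraries (range 89.6 to 351) (-3.12 ± 0.20). All luminal libraries lay below all basal ones in these genes, and the gap was far wider for Krt5 and Krt17 than for Krt15. Krt6a, a type II keratin induced in stressed epidermis, ran the other way: it lay between 27.2 and 103 CPM in luminal libraries (median 80.02), against 5.89 to 24.7 CPM in basal libraries (median 10.9) (2.63 ± 0.14), without overlap. It shares sequence with Krt6b, whose level was at most 0.198 CPM in any library. Krt10, a keratin of differentiating epidermis, had 1.25 to 2.07 CPM in luminal and 1.05 to 1.75 CPM in basal libraries (0.20 ± 0.17, adjusted p = 0.301).

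**Figure D2:**
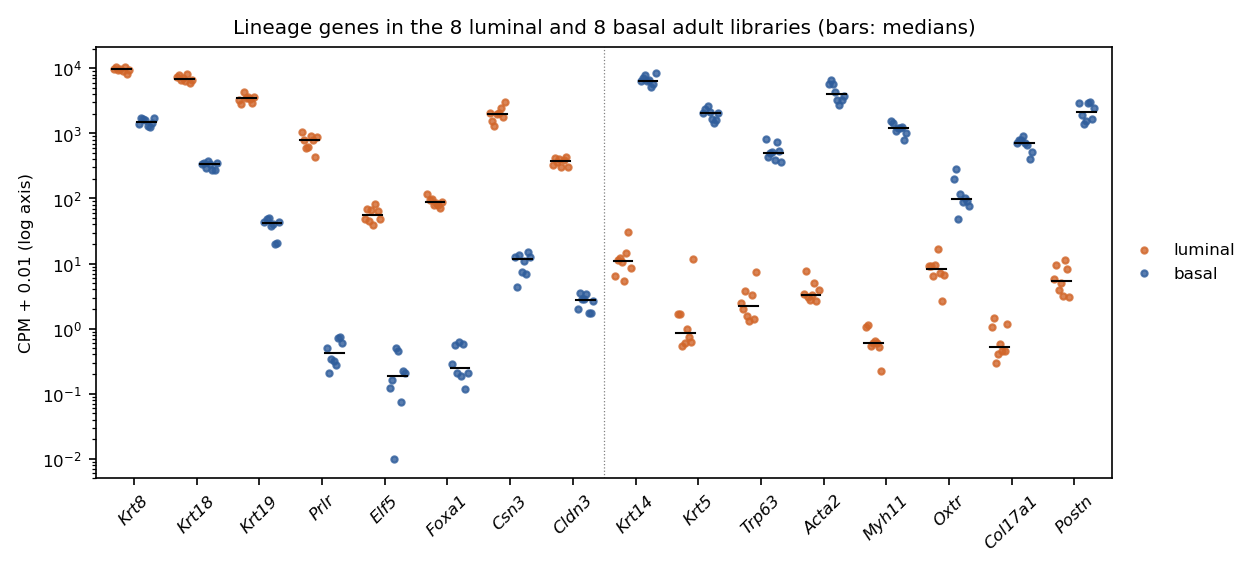
CPM per library on a log axis for 16 genes of the 2 lineages, 8 luminal libraries left and 8 basal libraries right of each pair. Krt18 lies at 6028 to 8336 CPM in luminal libraries, against 278 to 383 CPM in basal libraries, and Krt14 at 5.38 to 30.02 CPM in luminal libraries, against 5267 to 8369.9 CPM in basal libraries.

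Lineage transcription factors followed with wide gaps for some and narrow ones for others. Of 20 luminal transcription factors, 19 were higher in luminal and Tfap2b was lower, against 41.4% higher and 39.1% lower over all genes (median 3.25, adjusted p at most 0.0278). Elf5, the ETS factor that drives alveolar differentiation, lay between 39.7 and 81.9 CPM in luminal libraries (median 55.9), against 0 to 0.498 CPM in basal libraries (median 0.175) (8.14 ± 0.25). Foxa1, a pioneer factor of estrogen receptor binding, had a median of 87.1 CPM in luminal libraries (range 71.7 to 115), against 0.238 CPM in basal libraries (range 0.106 to 0.622) (8.0 ± 0.20). Ehf, an epithelial ETS factor, had a median of 232 CPM in luminal libraries (range 185 to 260.1), against 1.04 CPM in basal libraries (range 0.435 to 2.71) (7.63 ± 0.24). These 3 were at most 2.71 CPM in any basal library and their groups did not overlap. Msx2 (7.22 ± 0.22), Spdef (6.38 ± 0.19) and the transcriptional co-regulator Cited1 (6.54 ± 0.15) had gaps of the same order. Gata3, a factor needed for luminal fate, had a smaller one: it lay between 103 and 196 CPM in luminal libraries (median 127), against 44.1 to 72.8 CPM in basal libraries (median 60.5) (1.23 ± 0.14). Stat5a and Stat5b, the mediators of prolactin signalling, were higher by 1.69 ± 0.12 and 2.54 ± 0.10. Xbp1 (0.36 ± 0.10), Grhl2 (0.36 ± 0.09) and Bcl11a (0.59 ± 0.15) overlapped between the lineages, and with all 32 adult libraries in the fit Grhl2 and Bcl11a did not pass (adjusted p = 0.513 and 0.261). The lower call of Tfap2b (-0.24 ± 0.09, adjusted p = 0.0278) was lost without any of 5 pools, both of estrus, both of metestrus and proestrus replicate 1 (adjusted p 0.0536 to 0.0830).

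Of 17 basal transcription factors tested, 13 were lower in luminal, Nfib and Tcf4 were higher, and Snai1 and Srf did not pass (median -1.81, adjusted p at most 0.00261, with Myocd, Zeb1 and Twist1 left out by the filter on low counts). The shares over all genes were 39.1% lower and 41.4% higher. With no filter Myocd (-5.88 ± 0.89) and Twist1 (-5.64 ± 0.90) were lower and Zeb1 did not pass (adjusted p = 0.355). Nfib did not pass with all 32 adult libraries in the fit (adjusted p = 0.0771). Trp63, the p53 family member that basal epithelia need (chromosome 16, 25683763 to 25892102), lay between 1.304 and 7.43 CPM in luminal libraries (median 2.21), against 369.6 to 826 CPM in basal libraries (median 508) (-7.65 ± 0.32). Snai2, the zinc finger repressor Slug, had a median of 0.0981 CPM in luminal libraries (range 0 to 0.158), against 52.5 CPM in basal libraries (range 40.8 to 73.01) (-9.32 ± 0.22). Irx4, an Iroquois homeobox factor, had a median of 0.0532 CPM in luminal libraries (range 0 to 0.474), against 54.7 CPM in basal libraries (range 46.95 to 76.1) (-9.08 ± 0.29). The luminal and basal libraries were far apart in all 3, and Trp63 was not at 0 in luminal libraries. Bcl11b (-7.66 ± 0.35) and Id4 (-7.10 ± 0.20) were also nearly absent from luminal libraries. Mef2c, a factor of muscle differentiation, had 2 counts over all luminal libraries, which puts basal over luminal at a ratio of 262 with a 95% exact interval of 72.2 to 2174, for counting error only. Sox10 (-0.86 ± 0.12), Wwtr1, the Hippo co-activator TAZ (-0.90 ± 0.10), and Foxp1 (-1.69 ± 0.10) were lower by smaller steps. Srf, the partner of myocardin at contractile genes, had medians of 166 CPM in luminal and 130.2 CPM in basal libraries (0.20 ± 0.09, adjusted p = 0.0671), and Snai1 of 3.38 CPM in luminal and 2.33 CPM in basal libraries (0.49 ± 0.22, adjusted p = 0.054). Without metestrus replicate 2 both passed, higher in luminal, and so did Srf without diestrus replicate 1 and Snai1 without diestrus replicate 2, with adjusted p from 0.0138 to 0.0474.

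Both luminal programmes were carried by the luminal libraries. All 12 hormone-sensing genes were higher in luminal, against 41.4% of all genes (median 6.74, adjusted p at most 2.27e-08). Pgr, the progesterone receptor (chromosome 9, 8899833 to 8968611), lay between 173 and 410.4 CPM in luminal libraries (median 267), against 1.86 to 3.29 CPM in basal libraries (median 2.28) (6.74 ± 0.16). Esr1, the estrogen receptor alpha (chromosome 10, 4611593 to 5005614), lay between 131 and 213 CPM in luminal libraries (median 166), against 5.15 to 15.4 CPM in basal libraries (median 7.75) (4.41 ± 0.19). Areg, the EGF receptor ligand amphiregulin and a target of estrogen, had a median of 1102 CPM in luminal libraries (range 608 to 1379.9), against 9.75 CPM in basal libraries (range 4.53 to 19.8) (6.75 ± 0.31). No library overlapped in these genes, and Esr1 kept 5.15 to 15.4 CPM in basal libraries. Ly6a, which encodes the surface antigen Sca1, had a median of 319.9 CPM in luminal libraries (range 158 to 409.6), against 1.74 CPM in basal libraries (range 1.199 to 2.57) (7.28 ± 0.20), and Prom1, which encodes CD133, had a median of 301 CPM in luminal libraries (range 115 to 394), against 5.59 CPM in basal libraries (range 3.596 to 10.7) (5.59 ± 0.22). Calca, the gene of calcitonin, ran 0.548 to 380.5 CPM across luminal libraries with a median of 4.65 CPM, overlapped with basal libraries (0 to 0.849 CPM), and was highest in the luminal library of diestrus replicate 1. Tnfsf11, which encodes RANKL, a paracrine signal downstream of progesterone, was low: it lay between 0.0405 and 3.68 CPM in luminal libraries (median 0.8201), against 0 to 0.1004 CPM in basal libraries (median 0), so the groups overlapped. Its 206 luminal and 2 basal counts give a ratio of 83.6 with a 95% exact interval of 22.8 to 695, for counting error only, which leaves out the spread among luminal libraries.

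Of 13 luminal progenitor genes 12 were higher in luminal, against 41.4% of all genes (median 3.73, adjusted p at most 0.00146), and Cxcl1 did not pass (-0.02 ± 0.24, adjusted p = 0.936). Kit, the stem cell factor receptor (chromosome 5, 75574916 to 75656722), lay between 37.8 and 126 CPM in luminal libraries (median 79.7), against 0.318 to 1.06 CPM in basal libraries (median 0.4999) (7.14 ± 0.18). Aldh1a3, a retinaldehyde dehydrogenase, had a median of 874 CPM in luminal libraries (range 475 to 1001), against 9.898 CPM in basal libraries (range 5.398 to 24.7) (6.25 ± 0.32). Cd14, a co-receptor for lipopolysaccharide, had a median of 1150.3 CPM in luminal libraries (range 772 to 1375), against 11.5 CPM in basal libraries (range 7.45 to 15.8) (6.72 ± 0.15). Plet1 was more even, with medians of 3541 CPM in luminal and 566 CPM in basal libraries (2.59 ± 0.14). The first 3 of these genes were at most 24.7 CPM in basal libraries, whereas Plet1 was over 300 CPM in all of them. Cyp24a1, which inactivates vitamin D, had medians of 86.9 CPM in luminal and 0.505 CPM in basal libraries (7.39 ± 0.22), and Rspo1, a secreted enhancer of Wnt signalling, of 8.67 CPM in luminal and 0.827 CPM in basal libraries (3.73 ± 0.30).

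Milk genes were expressed in these virgin glands, most of them almost wholly in luminal libraries. Caseins are the main milk proteins, and prolactin drives them through STAT5, which binds the palindrome TTCNNNGAA. Of 18 milk protein and secretory genes tested 16 were higher in luminal, against 41.4% of all genes (median 6.90, adjusted p at most 0.00159). Lcn2 and Glycam1 did not pass and Csn1s2b, left out by the filter on low counts, was higher with no filter (4.62 ± 0.77). The motif, which reads the same on both strands, stood in 2726 of 32851 RefSeq promoters of GRCm38.p6 taken from 250 bases before to 50 after the start (8.3%). Of the 19 listed genes 14 matched a RefSeq promoter and 5 held it. Csn1s1 (100 bases before the start, chr5:87666068-87666156, plus strand), Csn2 (93 bases before, chr5:87699470-87699558, minus strand) and Glycam1 (145 bases before, chr15:103565178-103565266, minus strand) held it upstream of the start that the RefSeq promoter table uses, and are shown because the first 2 were the milk genes with the largest log2 fold changes and the last was one of the 2 that did not pass. For Csn2 that start, at 87699425, lies 205 bases inside the GENCODE span of the gene, so the stretch lies within that span. Capitals mark the motif.
Csn1s1: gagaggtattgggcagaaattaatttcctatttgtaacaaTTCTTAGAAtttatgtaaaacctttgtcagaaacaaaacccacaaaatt
Csn2: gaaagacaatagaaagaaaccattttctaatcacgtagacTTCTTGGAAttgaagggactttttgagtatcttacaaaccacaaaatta
Glycam1: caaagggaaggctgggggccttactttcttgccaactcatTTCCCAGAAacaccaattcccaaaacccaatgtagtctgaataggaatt

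Csn1s1, the alpha-S1 casein (chromosome 5, 87666208 to 87682578), lay between 152 and 1656 CPM in luminal libraries (median 349.9), against 0.201 to 8.49 CPM in basal libraries (median 0.543) (8.69 ± 0.26). Csn2, the beta casein (chromosome 5, 87692624 to 87699630), lay between 29.2 and 1565 CPM in luminal libraries (median 87.6), against 0.0502 to 8.49 CPM in basal libraries (median 0.188) (8.29 ± 0.22). In both genes the luminal library of diestrus replicate 1 was the highest by far, at 1656 CPM for Csn1s1 and 1565 CPM for Csn2, and the basal library of the same pool was highest among basal libraries, at 8.49 CPM for each. Csn3, the kappa casein, had a median of 2004 CPM in luminal libraries (range 1309.7 to 3065), against 11.7 CPM in basal libraries (range 4.42 to 14.9) (7.66 ± 0.24). Lalba, the regulatory subunit of lactose synthase, had a median of 67.3 CPM in luminal libraries (range 6.77 to 117), against 0.111 CPM in basal libraries (range 0 to 0.743) (8.26 ± 0.28). Spp1, the phosphoprotein osteopontin, had a median of 1817 CPM in luminal libraries (range 1258 to 4029.5), against 7.06 CPM in basal libraries (range 2.26 to 24.3) (8.07 ± 0.28). None of the groups overlapped, and Csn3 and Spp1 were over 1000 CPM in every luminal library. Wap, the whey acidic protein, stayed low with 153 luminal counts and 1 basal count in all, a ratio of 124 with a 95% exact interval of 21.96 to 4936, for counting error only. Btn1a1, a protein of the milk fat globule membrane, had medians of 119 CPM in luminal and 0.531 CPM in basal libraries (7.80 ± 0.11), and Ltf, lactoferrin, of 1383 CPM in luminal and 8.35 CPM in basal libraries (7.51 ± 0.42). Xdh, xanthine dehydrogenase, was higher by 0.49 ± 0.12 with overlap. Lcn2, the iron-siderophore carrier lipocalin, was abundant in both lineages, with medians of 1322 CPM in luminal and 1601 CPM in basal libraries (-0.19 ± 0.14, adjusted p = 0.234). Glycam1, whose promoter holds the motif, had medians of 0.348 CPM in luminal and 0.53 CPM in basal libraries (-0.90 ± 0.73, adjusted p = 0.263).

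Of 14 genes of ion and water transport tested 10 were higher in luminal, Aqp3 and Scnn1g were lower, and Slc30a2 and Ano1 did not pass (median 3.04, adjusted p at most 2.69e-06). The shares over all genes were 41.4% higher and 39.1% lower. Aqp5, a water channel of secretory glands (chromosome 15, 99590782 to 99594829), lay between 68.6 and 122 CPM in luminal libraries (median 89.4), against 0 to 0.356 CPM in basal libraries (median 0.117) (9.36 ± 0.20). Scnn1a, the alpha subunit of the epithelial sodium channel, had a median of 98.7 CPM in luminal libraries (range 88.2 to 136), against 2.23 CPM in basal libraries (range 1.43 to 3.25) (5.51 ± 0.15). Slc12a2, the sodium-potassium-chloride cotransporter, had a median of 1061 CPM in luminal libraries (range 526 to 1453), against 103 CPM in basal libraries (range 86.1 to 148) (3.17 ± 0.13). Each was without overlap. The channel's beta subunit Scnn1b was also higher in luminal (4.22 ± 0.18), while the gamma subunit Scnn1g was lower (-2.56 ± 0.31) at 0.623 to 6.43 CPM in luminal and 5.78 to 14.5 CPM in basal libraries. Aqp3, a channel for water and glycerol, lay between 41.1 and 104 CPM in luminal libraries (median 85.3), against 249 to 427 CPM in basal libraries (median 333) (-2.0 ± 0.11), so the 2 aquaporins of the list ran in opposite directions. Ano1, a calcium-activated chloride channel, had medians of 390.2 CPM in luminal and 359.8 CPM in basal libraries (0.03 ± 0.11, adjusted p = 0.814).

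Of 19 tight junction and polarity genes tested, 18 were higher in luminal, against 41.4% of all genes (median 4.43, adjusted p at most 7.62e-05). Cldn3, a sealing claudin (chromosome 5, 134986214 to 134987472), lay between 304 and 435 CPM in luminal libraries (median 373), against 1.72 to 3.47 CPM in basal libraries (median 2.75) (7.17 ± 0.16). Cldn4 had a median of 3829 CPM in luminal libraries (range 3264 to 4836), against 147 CPM in basal libraries (range 119 to 179) (4.74 ± 0.13). Cldn1 had a median of 233 CPM in luminal libraries (range 189 to 426), against 2.76 CPM in basal libraries (range 2.02 to 4.901) (6.40 ± 0.12). All 3 claudins separated the lineages without overlap. Cldn8 had 2975 counts in luminal libraries and none in basal ones, which makes it at least 805-fold higher with 3 counts over the group as the floor. Ocln, occludin, had medians of 205 CPM in luminal and 5.96 CPM in basal libraries (5.08 ± 0.10), and Cgn, the junction plaque protein cingulin, of 142 CPM in luminal and 0.845 CPM in basal libraries (7.36 ± 0.15). The scaffold genes Tjp3 and Tjp1 were higher by 7.64 ± 0.17 and 0.60 ± 0.10.

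**Figure D3:**
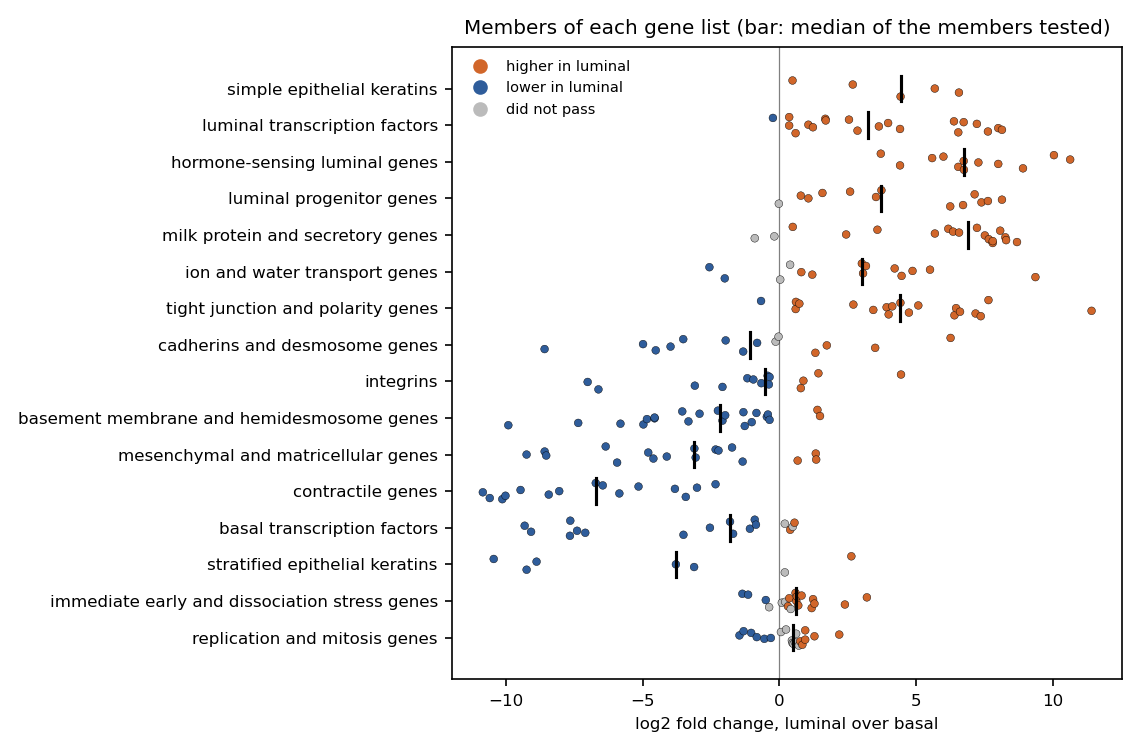
Luminal over basal log2 fold change of each tested gene in 16 gene lists, 1 point a gene, with the list median as a bar. Luminal lists lie to the right, with medians of 6.74 for hormone-sensing genes and 6.90 for milk genes. Contractile genes (-6.72) and stratified keratins (-3.79) lie to the left, while integrins sit near 0 (-0.55).

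All 15 contractile genes were lower in luminal, against 39.1% of all genes (median -6.72, the largest adjusted p 8.62e-09). Acta2, smooth muscle alpha actin (chromosome 19, 34241090 to 34255590), lay between 2.63 and 7.74 CPM in luminal libraries (median 3.31), against 2705 to 6569 CPM in basal libraries (median 4011) (-10.13 ± 0.23). Myh11, the smooth muscle myosin heavy chain (chromosome 16, 14194535 to 14291372), lay between 0.211 and 1.11 CPM in luminal libraries (median 0.594), against 806 to 1542 CPM in basal libraries (median 1202) (-10.85 ± 0.17). Mylk, the kinase that activates smooth muscle myosin, had a median of 0.582 CPM in luminal libraries (range 0.264 to 1.06), against 418 CPM in basal libraries (range 279 to 554) (-9.47 ± 0.13). The luminal libraries held less than 8 CPM of each. Actg2, smooth muscle gamma actin, had medians of 0.0496 CPM in luminal and 125 CPM in basal libraries (-10.59 ± 0.22), and Cnn1, calponin, of 0.579 CPM in luminal and 703 CPM in basal libraries (-10.02 ± 0.20). Tpm2, beta tropomyosin, had a median of 11.5 CPM in luminal libraries (range 10.1 to 15.9), against 1296 CPM in basal libraries (range 931 to 1612) (-6.72 ± 0.17), and Tpm1, alpha tropomyosin, had a median of 293 CPM in luminal libraries (range 257 to 353), against 1479.5 CPM in basal libraries (range 1407 to 1754) (-2.34 ± 0.08), so the smaller gap of Tpm1 went with at least 257 CPM in every luminal library. Oxtr, the oxytocin receptor (chromosome 6, 112473683 to 112489943), lay between 2.68 and 16.5 CPM in luminal libraries (median 8.16), against 48.1 to 282 CPM in basal libraries (median 97.01) (-3.82 ± 0.27).

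Serum response factor binds the CArG box. It was searched only in its exact consensus form (CC, a fixed run of A or T, GG), on both strands in the same windows of RefSeq promoters. That form stood in 535 of 32851 (1.63%). Sites that deviate from the consensus were not counted, so a gene without a match may still hold such a site. Of the 15 contractile genes 12 matched a RefSeq promoter and 1 held an exact match: Myl9, the regulatory light chain of smooth muscle myosin, 161 bases before the table's start at chr2:156775263-156775352 on the plus strand. It is shown with the box in capitals because it is the only match in the list.
Myl9: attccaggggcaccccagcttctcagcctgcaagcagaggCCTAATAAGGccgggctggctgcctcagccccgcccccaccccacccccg

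Myl9 lay between 0.932 and 1.79 CPM in luminal libraries (median 1.55), against 197 to 592 CPM in basal libraries (median 425) (-8.05 ± 0.25), and its groups did not overlap. Its fold change lies within the range of the 11 matched contractile genes without an exact match in these windows.

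Basement membrane and hemidesmosome genes were lower in luminal in 20 of 22 cases, against 39.1% of all genes (median -2.17, adjusted p at most 0.00855), and Lama5 and Plec were higher. Col17a1, the transmembrane collagen of hemidesmosomes (chromosome 19, 47646344 to 47692094), lay between 0.284 and 1.45 CPM in luminal libraries (median 0.507), against 404 to 921 CPM in basal libraries (median 714) (-9.91 ± 0.26). Col4a1 and Col4a2, the head-to-head genes of the main type IV collagen, differed by -4.98 ± 0.23 and -5.81 ± 0.22. Col7a1, the anchoring fibril collagen, had medians of 1.56 CPM in luminal and 256 CPM in basal libraries (-7.36 ± 0.22). The laminin chains were spread from one lineage to the other. Lama3, the alpha chain of laminin-332, had a median of 41.8 CPM in luminal libraries (range 24.2 to 62.2), against 963 CPM in basal libraries (range 831 to 1216) (-4.57 ± 0.18), and Lamb3, the beta chain, differed by -2.92 ± 0.08. Lama1 had -4.84 ± 0.17. Lama5, the alpha chain of laminin-511, ran the other way: it lay between 682 and 1439 CPM in luminal libraries (median 1076), against 263 to 575 CPM in basal libraries (median 362) (1.48 ± 0.14), without overlap, and Plec, which links hemidesmosomes to keratin, was higher by 1.39 ± 0.17. Itgb4 (-0.36 ± 0.11), Lama4 (-0.46 ± 0.14), Lamc1 (-0.84 ± 0.17) and Dst (-1.01 ± 0.12) passed with overlapping libraries, but Itgb4 did not pass with all 32 adult libraries in the fit (adjusted p = 0.284), nor Lama4 without the block by pool (0.0609).

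Integrins split, with 4 of 14 higher in luminal and 10 lower (median -0.55, adjusted p at most 0.0278). Over all genes tested 41.4% were higher and 39.1% lower. Itgb6, the epithelial partner of alpha V, lay between 103 and 189.6 CPM in luminal libraries (median 131), against 4.01 to 8.21 CPM in basal libraries (median 6.13) (4.45 ± 0.14). Itgb8 (1.43 ± 0.13), Itgav (0.88 ± 0.12) and Itga2 (0.78 ± 0.19) were also higher in luminal, the last not with all 32 adult libraries in the fit (adjusted p = 0.244). Itga9 had a median of 0.537 CPM in luminal libraries (range 0.199 to 1.08), against 64.3 CPM in basal libraries (range 54.95 to 74.9) (-7.01 ± 0.20). Itga1, a collagen receptor chain, had a median of 0.199 CPM in luminal libraries (range 0.0559 to 0.422), against 20.7 CPM in basal libraries (range 17.9 to 28.1) (-6.62 ± 0.20). Itga5, the fibronectin receptor chain, was lower (-3.09 ± 0.14), and so was Itgb1, the common beta chain (-0.95 ± 0.09), at over 700 CPM in every library of both lineages. The call of Itga7 (-0.39 ± 0.15, adjusted p = 0.0278) was lost without any of 4 pools: both of proestrus, metestrus replicate 2 and diestrus replicate 1 (adjusted p 0.0692 to 0.0784), and without the block by pool (0.0508).

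Among cell adhesion genes Cdh3 was nearly absent from luminal libraries, while Cdh1 was expressed in both lineages. Of 14 cadherin and desmosome genes tested 4 were higher in luminal, 8 lower, and Pkp3 and Jup did not pass (median -1.07, adjusted p at most 0.00252). The shares over all genes were 41.4% higher and 39.1% lower. Cdh1, E-cadherin, lay between 2189 and 2472 CPM in luminal libraries (median 2294), against 738 to 1164 CPM in basal libraries (median 918) (1.31 ± 0.10), and did not pass with all 32 adult libraries in the fit (adjusted p = 0.0675). Cdh3, P-cadherin (chromosome 8, 106510891 to 106557297), lay between 0.737 and 2.21 CPM in luminal libraries (median 1.12), against 379 to 653 CPM in basal libraries (median 489) (-8.59 ± 0.22). Cdh1 was thus over 700 CPM in every basal library, whereas Cdh3 did not exceed 2.21 CPM in any luminal one. The desmosomal plakophilins ran apart: Pkp2 had medians of 129 CPM in luminal and 1.63 CPM in basal libraries (6.26 ± 0.15), Pkp1 of 63.8 CPM in luminal and 721 CPM in basal libraries (-3.52 ± 0.11), and Pkp3 of 265 CPM in luminal and 282 CPM in basal libraries (-0.03 ± 0.09, adjusted p = 0.737). Among desmosomal cadherins Dsc2 (3.50 ± 0.18) and Dsg2 (1.73 ± 0.10) were higher in luminal, and Dsc3 (-3.98 ± 0.69) and Dsg3 (-4.99 ± 0.41) were lower.

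Of 17 mesenchymal and matricellular genes tested 14 were lower in luminal, against 39.1% of all genes (median -3.11, adjusted p at most 0.000483), and Ccn1, S100a4 and Cav2 were higher. Vim, vimentin, had a median of 4.14 CPM in luminal libraries (range 2.27 to 6.36), against 381 CPM in basal libraries (range 199.9 to 454) (-6.35 ± 0.21). Sparc, a collagen-binding matrix protein, had a median of 5.199 CPM in luminal libraries (range 2.69 to 6.36), against 1873 CPM in basal libraries (range 1392 to 2253) (-8.58 ± 0.18). Postn, periostin, had a median of 5.38 CPM in luminal libraries (range 3.06 to 11.5), against 2168 CPM in basal libraries (range 1408 to 3026) (-8.53 ± 0.30). These genes were at most 11.5 CPM in luminal libraries. The CCN proteins ran in opposite directions, since Ccn2 lay between 76.97 and 301 CPM in luminal libraries (median 148), against 2255 to 5767 CPM in basal libraries (median 3884) (-4.61 ± 0.23), whereas Ccn1 lay between 959 and 1860.0 CPM in luminal libraries (median 1572), against 393 to 776 CPM in basal libraries (median 546) (1.34 ± 0.16), both without overlap. Axl, a receptor tyrosine kinase, was lower (-5.94 ± 0.11). Thbs1, thrombospondin 1, was abundant in both, with medians of 1022 CPM in luminal and 5498 CPM in basal libraries (-2.23 ± 0.12). The tested fibroblast markers other than Dcn were lower in luminal too, and their part in this group was not tested.

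Wnt ligands, EGF family genes and Notch genes each had members on both sides, as all genes tested did (41.4% higher and 39.1% lower), so the counts alone say nothing particular of these families. Of 19 listed Wnt ligands 9 were tested, with 4 higher in luminal and 5 lower (median -1.51, adjusted p at most 5.41e-06). With no filter on low counts 9 were lower, the added ones being Wnt7a, Wnt8a, Wnt2 and Wnt10b (adjusted p at most 0.0451). Wnt4, which the paper names as a candidate acting downstream of progesterone, lay between 41.7 and 86.98 CPM in luminal libraries (median 65.96), against 2.07 to 7.39 CPM in basal libraries (median 4.89) (3.71 ± 0.16). Wnt7b had a median of 218 CPM in luminal libraries (range 142 to 245), against 8.87 CPM in basal libraries (range 4.03 to 16.6) (4.58 ± 0.16). Wnt5a and Wnt5b, which mostly signal without beta-catenin, were higher by 1.44 ± 0.18 and 1.57 ± 0.11. On the other side Wnt10a lay between 0 and 0.158 CPM in luminal libraries (median 0.0495), against 15.2 to 55.8 CPM in basal libraries (median 42.6) (-9.23 ± 0.21), and Wnt11 had a median of 9.28 CPM in luminal libraries (range 7.43 to 15.5), against 105 CPM in basal libraries (range 48.9 to 143) (-3.24 ± 0.19). Wnt6 (-4.97 ± 0.33), Wnt2b (-2.46 ± 0.23) and Wnt9a (-1.51 ± 0.19) were lower in luminal at levels of at most 12.7 CPM. None of these 9 ligands overlapped between the lineages.

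Of 20 genes for Wnt receptors, R-spondin and the RANK system, 6 were higher in luminal and 14 lower (median -1.42, adjusted p at most 0.000212). The shares over all genes were 41.4% higher and 39.1% lower. Lgr5, the R-spondin receptor, lay between 0.391 and 3.29 CPM in luminal libraries (median 1.45), against 57.9 to 97.7 CPM in basal libraries (median 77.8) (-5.70 ± 0.23), and Procr, the protein C receptor, had a median of 3.21 CPM in luminal libraries (range 1.81 to 5.06), against 187 CPM in basal libraries (range 160.1 to 285) (-5.81 ± 0.18). Fzd7 (-3.39 ± 0.15) and Lgr4 (-2.14 ± 0.08) were lower, and Fzd10 (2.37 ± 0.17) and Fzd4 (1.23 ± 0.17) were higher. The co-receptors differed by less than 1 on the log2 scale, at 0.57 ± 0.10 for Lrp5 and -0.74 ± 0.11 for Lrp6. Of the RANK system, the ligand Tnfsf11 was luminal, its receptor Tnfrsf11a had a median of 6.005 CPM in luminal libraries (range 3.36 to 9.62), against 21.9 CPM in basal libraries (range 14.4 to 27.5) (-1.79 ± 0.14), and its decoy receptor osteoprotegerin, Tnfrsf11b, had a median of 0.512 CPM in luminal libraries (range 0.283 to 1.396), against 62.4 CPM in basal libraries (range 40.2 to 114) (-6.83 ± 0.26).

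Of 13 EGF family genes tested 7 were higher in luminal, 5 lower, and Hbegf did not pass (median 1.55, adjusted p at most 1.33e-06). Among ligands Areg and Btc (5.93 ± 0.21) were higher in luminal, while Ereg, epiregulin, had a median of 0.823 CPM in luminal libraries (range 0.224 to 1.27), against 57.6 CPM in basal libraries (range 46.7 to 73.9) (-6.26 ± 0.19), and Nrg1, neuregulin 1, had a median of 1.74 CPM in luminal libraries (range 0.727 to 2.95), against 112 CPM in basal libraries (range 59.8 to 201) (-5.92 ± 0.21). Hbegf had medians of 156 CPM in luminal and 157 CPM in basal libraries (0.0 ± 0.15, adjusted p = 0.998). Among receptors Erbb3, which binds neuregulins, lay between 479 and 676 CPM in luminal libraries (median 585), against 4.296 to 8.97 CPM in basal libraries (median 6.35) (6.49 ± 0.13). Erbb4 had a median of 18.2 CPM in luminal libraries (range 11.4 to 19.98), against 0.336 CPM in basal libraries (range 0.0502 to 0.509) (5.78 ± 0.23), and Erbb2 was higher by 1.55 ± 0.08. Egfr was lower in luminal, at 89.7 to 135 CPM against 181 to 254 CPM (-0.95 ± 0.11). The ligands Nrg1 and Nrg2 were thus on the basal side and their receptors Erbb3 and Erbb4 on the luminal side, without overlap. Nrg4, with 226 luminal counts and 1 basal count, was a luminal neuregulin (ratio 183, 95% exact interval 32.6 to 7276, for counting error only).

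Of 14 Notch genes 8 were higher in luminal, 4 lower, and Notch2 and Lfng did not pass (median 1.47, adjusted p at most 0.0103). Notch3 lay between 108 and 245 CPM in luminal libraries (median 165), against 3.06 to 7.63 CPM in basal libraries (median 4.06) (5.28 ± 0.17). Notch1 had a median of 198 CPM in luminal libraries (range 154 to 311), against 31.9 CPM in basal libraries (range 22.9 to 45.4) (2.69 ± 0.18). The target genes Hes1 (4.09 ± 0.16), Nrarp (2.48 ± 0.14), Heyl (2.17 ± 0.38), Hey1 (1.06 ± 0.14) and Hey2 (1.88 ± 0.35) were higher in luminal. The ligands Jag1, Dll1 and Jag2 were lower: Jag1 lay between 20.97 and 40.4 CPM in luminal libraries (median 28.1), against 763 to 1480.5 CPM in basal libraries (median 1084) (-5.27 ± 0.18), Dll1 had a median of 2.06 CPM in luminal libraries (range 1.85 to 3.34), against 158 CPM in basal libraries (range 91.3 to 222) (-6.13 ± 0.11), and Jag2 was lower (-5.74 ± 0.22). The fourth lower gene was the receptor Notch4, at 0.227 to 0.608 CPM in luminal and 0.373 to 1.16 CPM in basal libraries (-0.81 ± 0.26, adjusted p = 0.0103). Dll4 was the ligand on the luminal side, at 1.34 to 2.999 CPM (1.95 ± 0.29). Notch2 had medians of 162 CPM in luminal and 159.9 CPM in basal libraries (-0.13 ± 0.16, adjusted p = 0.481). Lfng passed, lower in luminal, without estrus replicate 1 or either proestrus pool (adjusted p 0.0162 to 0.0465).

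**Figure D4:**
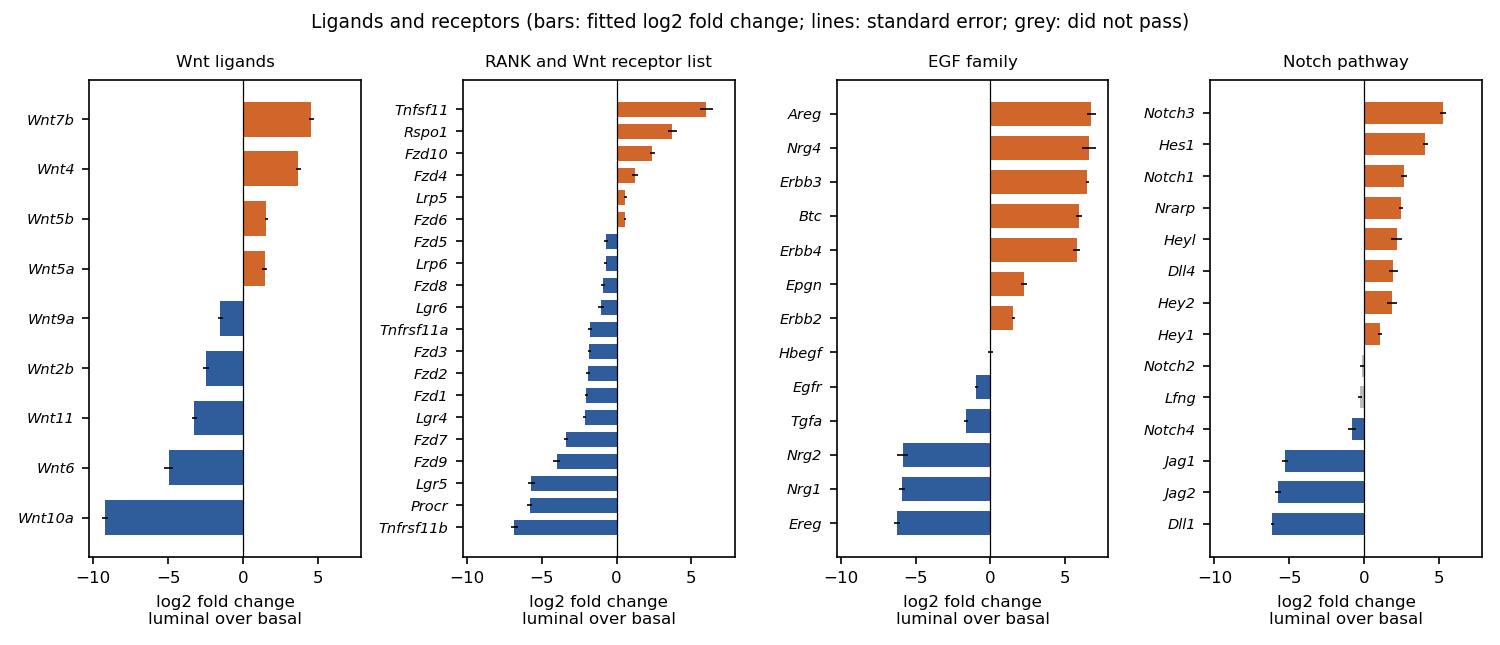
Luminal over basal log2 fold change with its standard error for the tested Wnt ligands, RANK and Wnt receptor genes, EGF family and Notch genes, bars from 0. Wnt7b (4.58), Areg (6.75) and Notch3 (5.28) point to luminal, and Wnt10a (-9.23), Ereg (-6.26) and Dll1 (-6.13) to basal.

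Early response genes, which dissociation of a tissue also induces, were higher in luminal in 12 of 19 cases and lower in 3 (median 0.59, adjusted p at most 0.0126). Over all genes tested 41.4% were higher and 39.1% lower. With all 32 adult libraries in the fit Junb and Dusp1 did not pass (adjusted p = 0.067 and 0.114), while Dnajb1 passed, lower in luminal (0.0293). Fos lay between 1136 and 3035 CPM in luminal libraries (median 1617), against 177 to 680.0 CPM in basal libraries (median 246) (2.39 ± 0.18), and Jun had a median of 1114 CPM in luminal libraries (range 694 to 1613), against 454 CPM in basal libraries (range 383 to 575) (1.23 ± 0.16). Socs3 was lower (-1.35 ± 0.15), and so were Nr4a1 (-1.15 ± 0.23) and Ier3 (-0.50 ± 0.09). Hspa1a and Hspa1b did not pass, at 0.09 ± 0.21 and 0.21 ± 0.20. Cells of both lineages went through the same digestion, and the part of this step in the differences above was not tested.

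Of 20 replication and mitosis genes 6 were higher in luminal, 6 lower and 8 did not pass, against 41.4% higher and 39.1% lower over all genes (median 0.50, adjusted p at most 0.00361). Mki67, a nuclear protein of cycling cells, lay between 3.41 and 35.6 CPM in luminal libraries (median 9.05), against 0.371 to 29.8 CPM in basal libraries (median 1.23) (2.19 ± 0.32). Top2a, topoisomerase II alpha, had a median of 9.12 CPM in luminal libraries (range 4.74 to 52.6), against 4.04 CPM in basal libraries (range 1.59 to 65.5) (0.94 ± 0.22), and did not pass with all 32 adult libraries in the fit (adjusted p = 0.107). The estrus replicate 1 pool was high in both lineages, with 35.6 CPM of Mki67 in its luminal and 29.8 CPM in its basal library. Without that pool 13 of the 20 genes were higher in luminal. Subunits of the replicative helicase ran both ways, as Mcm6 (1.28 ± 0.10) and Mcm2 (0.94 ± 0.18) were higher and Mcm7 (-1.46 ± 0.10), Mcm5 (-0.83 ± 0.10) and Mcm3 (-0.55 ± 0.10) lower. Mcm7 shares exon positions with other genes on both strands, so its count is less certain.

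Whether the gap between the lineages changed over the estrous cycle was tested as an interaction over the 4 stages. It was called for 2 of 13193 genes (0.0152%), Pappa and Olfml3, while 1246 genes had an unadjusted p under 0.05. Pappa, a metalloproteinase that cleaves insulin-like growth factor binding proteins (chromosome 4, 65124174 to 65357509), had 22.3 and 20.5 CPM in luminal libraries of proestrus, 5.31 and 4.49 CPM in estrus, 1.25 and 0.696 CPM in metestrus and 1.17 and 0.264 CPM in diestrus. In basal libraries it had 47.3 to 115 CPM over all stages. The luminal over basal log2 fold change was -1.31 in proestrus, -4.38 in estrus, -6.25 in metestrus and -6.63 in diestrus (interaction adjusted p = 0.000631). Luminal libraries of proestrus were thus above those of every other stage, and basal libraries were above luminal ones at each stage. Olfml3, a secreted olfactomedin-domain protein (chromosome 3, 103722222 to 103738001), had 16.5 and 6.87 CPM in luminal libraries of proestrus, against 0.596 to 1.02 CPM in the other luminal libraries. In basal libraries it had 3.75 to 8.77 CPM over all stages. Its log2 fold change was 1.51 in proestrus, -3.32 in estrus, -2.63 in metestrus and -2.21 in diestrus (interaction adjusted p = 0.0212). Its call was lost without proestrus replicate 1 (adjusted p = 0.231), estrus replicate 1 (0.0617), metestrus replicate 1 (0.0572) or metestrus replicate 2 (0.0569), whereas that of Pappa held without each pool. DESeq2 called 58 genes and the same test with no filter on low counts 759. With 2 pools a stage, the interaction has little precision for genes that vary within a stage, and a p above the threshold does not show equal gaps.

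**Figure D5:**
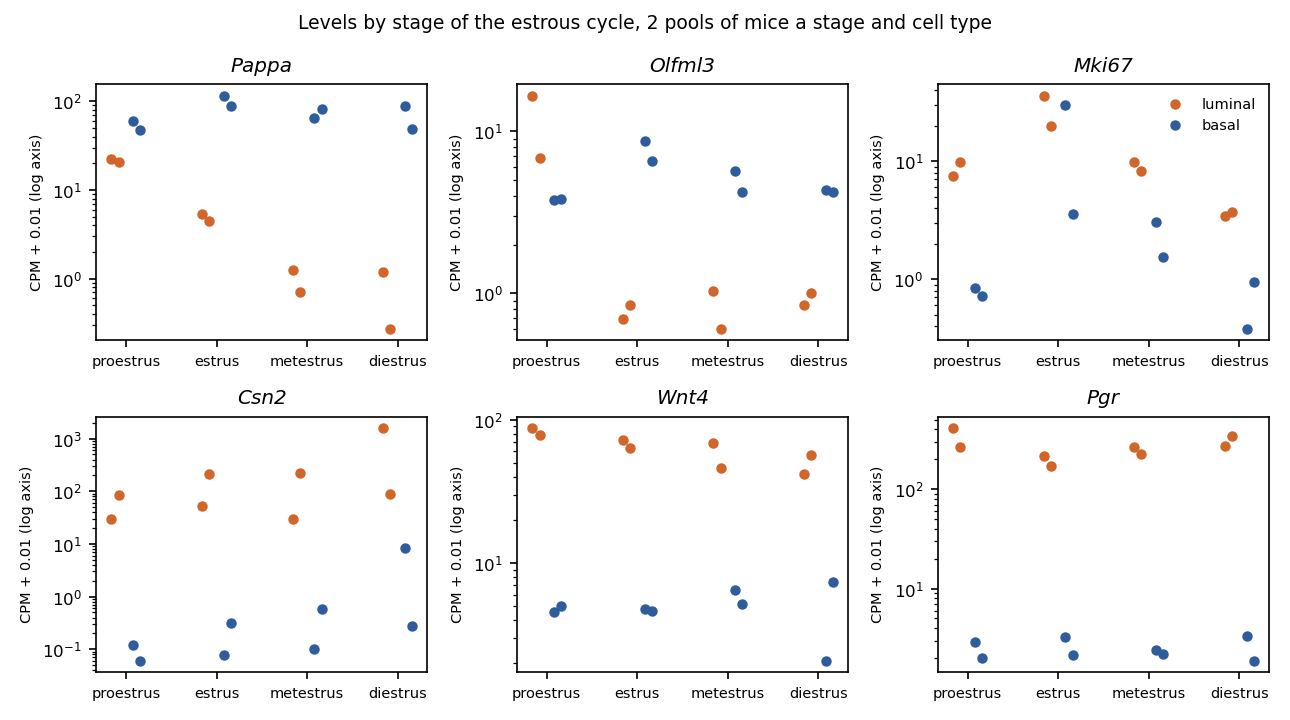
CPM on a log axis for Pappa, Olfml3, Mki67, Csn2, Wnt4 and Pgr over proestrus, estrus, metestrus and diestrus, with luminal and basal libraries as separate points, 2 a stage. Pappa in luminal libraries is 22.3 and 20.5 CPM in proestrus, and 1.17 and 0.264 CPM in diestrus.

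How the adult gap compared with that of puberty was tested in 20 libraries as the adult minus puberty difference of the luminal over basal log2 fold change. Among genes present at both ages 13463 were tested, and 1965 had a more positive difference in adults (14.6%), 1551 a more negative one (11.5%). The 2 ages were sequenced in separate runs. A shift common to both cell types of a run cancels within pairs, but age and any run effect that differs between the cell types cannot be told apart. With 2 pubertal pairs the count depended on each: it was 691 in all without puberty replicate 2 and 4286 without replicate 1, against 3516 with both. The 2 pairs were also of different days, so pool and day cannot be told apart.

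Lineage markers held their side at both ages. All 17 luminal markers were positive and all 14 basal markers negative in adults and in puberty, with median log2 fold changes of 6.26 in adults, against 4.81 in puberty, for luminal markers and -9.11 in adults, against -8.79 in puberty, for basal markers. Krt18 differed by less in adults (4.44 in adults, against 6.07 in puberty, difference -1.64 ± 0.25, adjusted p = 0.000771). Scaled over all 20 libraries, it lay at 5955 to 8360 CPM in adult luminal libraries, against 5198 and 11053 CPM in pubertal ones. In basal libraries it lay at 280 to 379 CPM in adults, against 99.9 and 127 CPM in puberty. The 2 pubertal luminal libraries also differed in Krt8 (7088 and 15656 CPM) and, the other way, in Dst (639 and 180 CPM). Krt14 had -9.24 in adults, against -7.60 in puberty (difference -1.64 ± 0.53, adjusted p = 0.0372). Its call was lost without either pubertal pool (adjusted p = 0.337 without replicate 2 and 0.0525 without replicate 1) and without proestrus replicate 2, either estrus pool, metestrus replicate 1 or diestrus replicate 2 (0.0507 to 0.0567). Kit, the progenitor receptor, had 7.15 in adults, against 3.78 in puberty (difference 3.36 ± 0.37, adjusted p = 8.86e-05).

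Of 18 milk genes 9 had a more positive luminal over basal difference in adults and 1, Trf, a more negative one. The shares over all genes were 14.6% more positive and 11.5% more negative. Csn2 lay at 29.3 to 1546 CPM in adult luminal libraries (median 88.5) and 0.0477 to 8.56 CPM in adult basal libraries (median 0.189), against 780.3 and 346 CPM in pubertal luminal libraries and 47.7 and 22.7 CPM in pubertal basal libraries (difference 4.35 ± 0.38, adjusted p = 1.61e-05). Only the adult luminal library of diestrus replicate 1 was above both pubertal luminal values, while the other adult luminal libraries, scaled among adults alone, reached at most 225 CPM and lay below both. Without that pool the difference was 4.97 (adjusted p = 4.04e-06). Both pubertal basal values were above every adult basal library. For the EGF family 8 of 13 genes had a more positive difference in adults and 2 a more negative one. For contractile genes it was 1 and 2 of 15, with Tpm2 at -6.71 in adults, against -4.27 in puberty (-2.44 ± 0.32, adjusted p = 0.000297), and Acta2 did not pass (-10.13 in adults, against -10.33 in puberty).

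Of stratified-type keratins 3 of 9 had a more positive difference in adults and 3 a more negative one, against 14.6% and 11.5% over all genes. For this contrast 10 genes were named by a fixed rule. Krt10, a keratin of differentiating epidermis, lay at 1.24 to 2.04 CPM in adult luminal libraries (median 1.501) and 1.05 to 1.77 CPM in adult basal libraries (median 1.47), against 3.95 and 4.76 CPM in pubertal luminal libraries and 63.1 and 105 CPM in pubertal basal libraries (difference 4.42 ± 0.27, adjusted p = 2.78e-06). Krt1, its type II partner, had 1.06 in adults, against -5.05 in puberty (6.11 ± 0.47, adjusted p = 5.70e-06), and Sprr1a, a cornified envelope protein, 6.60 in adults, against 1.52 in puberty (5.09 ± 0.42, adjusted p = 1.26e-05). The pubertal basal libraries were thus the only ones with over 10 CPM of Krt10. Mmp13, a collagenase, lay at 0.9296 to 2.82 CPM in adult luminal libraries (median 1.21) and 0 to 0.0953 CPM in adult basal libraries (median 0.0588), against 1.97 and 2.93 CPM in pubertal luminal libraries and 14.7 and 62.02 CPM in pubertal basal libraries, and changed side (difference 8.42 ± 0.58, adjusted p = 2.99e-06). Lgals9, galectin 9, also changed side (-2.08 in adults, against 1.24 in puberty, difference -3.32 ± 0.22, adjusted p = 2.99e-06), and so did the cytoskeletal linker Epb41l3 (1.56 in adults, against -2.86 in puberty, 4.43 ± 0.31, adjusted p = 3.26e-06). Cxcl12, a chemokine, was lower in luminal at both ages and by more in adults (-5.60 in adults, against -2.33 in puberty, -3.27 ± 0.24, adjusted p = 3.94e-06). Cpe, a prohormone-processing carboxypeptidase, had 4.10 in adults, against 0.53 in puberty (3.57 ± 0.27, adjusted p = 5.70e-06). Egflam, the matrix protein pikachurin, had 5.34 in adults, against 0.77 in puberty (4.57 ± 0.39, adjusted p = 1.26e-05), and Bmp3, a BMP family ligand, 7.37 in adults, against 2.24 in puberty (5.13 ± 0.43, adjusted p = 1.26e-05). Among members of the other lists with the smallest p of their list, Itgb6 (4.46 in adults, against 0.75 in puberty, 3.70 ± 0.40, adjusted p = 8.46e-05) and Cldn1 (6.41 in adults, against 3.77 in puberty, 2.64 ± 0.26, adjusted p = 4.28e-05) had a wider gap in adults. Pkp1 did too, on the basal side (-3.51 in adults, against -0.89 in puberty, -2.62 ± 0.24, adjusted p = 2.25e-05), and so did Krt17 (-8.87 in adults, against -6.19 in puberty, -2.69 ± 0.50, adjusted p = 0.00243), whose call was lost without puberty replicate 2 (adjusted p = 0.0778). Lamb1 had the narrower gap in adults (-1.98 in adults, against -4.82 in puberty, 2.85 ± 0.35, adjusted p = 0.000212).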

How the data were processed

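Reads of 65 bases from stranded polyA libraries were mapped by the authors to GRCm38 with TopHat2 2.1 and Bowtie 1.1.0 and counted per gene with HTSeq (submitters' processing notes and methods), and the deposited raw counts were used. The strand setting of the counting is not given in the sources used here, so genes with overlapping exons are less certain (23 of the 124 genes examined for this, Krt5, Krt8, Prlr, Col4a1 and Mcm7 among them). The deposited normalized tables were not used. In R 4.3.3, edgeR 4.0.16 (limma 3.58.1) was fitted with TMM scaling, genes above 1 CPM in at least 2 of the 16 libraries, and the pool of mice as a block, and glmTreat tested against 2-fold. Of 315 listed epithelial genes 314 were in the table and 289 tested (139 higher, 125 lower, 25 not passing). Over all genes tested 41.4% were higher and 39.1% lower. The members and lists were chosen with earlier results of these data known. Named genes were the 12 per direction with the largest fold change among those called with no overlap and a log2 CPM of at least 5. For age, 10 were named by smallest p. Predicted genes were left out of both. Luminal and basal libraries of a pool came from the same mice (correlation of their deviations from the cell type means 0.01 to 0.48, to which a shared stage can add). For replicate 2 of estrus, metestrus and diestrus, the luminal library correlated more with the basal library of some other pool. The values were 0.247, 0.201 and 0.232 against 0.101, 0.010 and 0.162, and in the remaining pools the own pool was highest. With the means of cell type and stage removed, the correlation was 0.151 in proestrus, 0.167 in estrus, -0.0165 in metestrus and 0.183 in diestrus. Replicates were pools of different mice. Depth sets the precision of low genes, and a count of 0 allows 3 counts. Promoters were taken from RefSeq tables and gene spans from GENCODE M21. Alternatives were DESeq2 1.42.0, other scaling, no filter, no block, all 32 adult libraries and leaving out each pool. The scripts were tested on simulated data. Some genes of the lists are not reported here by name.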

Additional observations from a re-analysis of the deposited data

Results flagged for a closer look

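In groups of 8 libraries, a single library stood apart from the other 7 in 25 of 196 groups examined. The rule gives about 1 in 20 only for independent values with a normal distribution. Here CPM were used on the linear scale and the groups share libraries, so the count cannot be set against chance. The luminal library of diestrus replicate 1 was highest in Krt14 (30.02 CPM), Calca (380.5 CPM), Csn2 (1565 CPM), Csn1s1 (1656 CPM), Vwf (54.1 CPM) and the endothelial marker sum (58.04 CPM), and lowest in the luminal marker sum (25375 CPM). The basal library of that pool was highest in Csn1s1 (8.49 CPM) and Procr (285 CPM) and lowest in Scnn1g (5.78 CPM). The luminal library of diestrus replicate 2 was highest in Krt5 (11.8 CPM), Trp63 (7.43 CPM) and Lcn2 (2303 CPM). The luminal library of proestrus replicate 1 was highest in Tfap2b (63.3 CPM), Fos (3035 CPM) and Olfml3 (16.5 CPM), and that of proestrus replicate 2 was highest in Acta2 (7.74 CPM) and lowest in Aqp3 (41.1 CPM). The basal library of proestrus replicate 2 was highest in Glycam1 (9.64 CPM) and Tpm1 (1754 CPM), and that of metestrus replicate 2 in Esr1 (15.4 CPM). The estrus replicate 1 pool was highest in Mcm6 in its luminal (133 CPM) and basal (59.96 CPM) libraries, and in Nrg1 (201 CPM) and Mki67 (29.8 CPM) in its basal library.

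The luminal over basal gap differed between stages for Pappa (adjusted p = 0.000631) and Olfml3 (adjusted p = 0.0212). It differed between adults and puberty, by the adult minus puberty log2 difference, for Mmp13 (8.42), Krt1 (6.11), Bmp3 (5.13), Sprr1a (5.09), Egflam (4.57), Epb41l3 (4.43), Krt10 (4.42), Csn2 (4.35), Itgb6 (3.70), Cpe (3.57), Kit (3.36), Lamb1 (2.85), Cldn1 (2.64), Krt18 (-1.64), Krt14 (-1.64), Tpm2 (-2.44), Pkp1 (-2.62), Krt17 (-2.69), Cxcl12 (-3.27) and Lgals9 (-3.32). Run and age cannot be told apart in these.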

How the results depend on the processing

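Counts of the luminal over basal contrast held within 1.5 times under every alternative: 6295 higher and 5758 lower with no filter, 5376 and 5229 with DESeq2, 5386 and 5245 with its size-factor scaling, 5098 and 5647 with all 32 adult libraries, 5311 to 5473 and 4992 to 5150 leaving out a pool. With no replicate block they were 5470 and 5207, the stage count stayed 2 and the age count was 3319. Past 2-fold, leaving out a pool gave 2384 to 2442 and 2012 to 2047. The stage interaction, 2 genes, gave 759 with no filter, 58 with DESeq2, 4 with all 32 adult libraries and 1 to 6 leaving out a pool. The cause was not tested. The age count, 3516, was 691 to 4286 leaving out a pool, the lowest without puberty replicate 2. Leaving out a pubertal pool does not apply to the stage result, which uses none. Of 341 genes 29 changed their call under some alternative, 16 of them leaving out a pool, and 0 changed direction. Olfml3 lost its luminal over basal call without any one of the 6 pools of estrus, metestrus and diestrus. Genes of low count were left out by the filter, and with none Wnt ligands lower in luminal numbered 9 in place of 5, while 1 simple keratin was lower and 2 stratified keratins were higher.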
